A study of Mus musculus with 17 samples.

Results

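The effect of deleting Men1 in beta cells that already lack Rbp2 was examined by setting the 4 islet arrays genotyped as Men1flf, Rbp2flf, RIP-Cre (the double knockout) against the 4 arrays genotyped as Rbp2flf, RIP-Cre (here Rbp2 RIP-Cre). These 8 arrays, chosen by their titles, are part of a series of 17. The other arrays are 3 of Men1flf, RIP-Cre islets (here Men1 RIP-Cre), 3 of RIP-Cre islets and 3 of wild type islets. All islets came from 2-month-old mice that received no treatment, and the 3 knockout groups and the RIP-Cre controls all carry the Cre transgene.

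Men1 codes for menin, a tumour suppressor whose loss causes endocrine tumours, among them insulinomas, in people and mice. Menin is a scaffold for the MLL complexes, which place methyl groups on lysine 4 of histone H3 at promoters, a mark found at active and CG-rich genes. Rbp2 is an older name of Kdm5a, a demethylase that removes this mark, so the 2 proteins act on it in opposite directions. RIP-Cre drives Cre recombinase from the rat insulin promoter. The floxed genes are therefore removed in beta cells, and in whole islets the alpha, delta and other cells keep them. RIP-Cre lines are also known for some Cre activity in the brain. The comparison asks what menin does to the islet transcriptome once the opposing demethylase is gone, and the same deletion in mice with intact Rbp2 (Men1 RIP-Cre against RIP-Cre) gives the yardstick.

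Values are log2 intensities of 1 probe set per gene for 19938 genes, and the number of arrays limits their precision. Genes with a limma adjusted p (Benjamini-Hochberg, all 17 arrays in the fit) under 0.05 were called. The 75th percentile of all probe sets lay between 8.92 and 8.95 on every array, while the array medians of the genes tested were 7.88 to 7.95 in the double knockout and 7.82 to 7.98 in Rbp2 RIP-Cre islets. The titles do not say that repeats are separate animals, so that p-values reflect spread between arrays that may be technical. In whole islets, fewer cells of a type and less RNA per cell cannot be told apart.

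The deleted genes were checked first. Men1 lay at 8.87, 8.54, 8.64 and 8.46 in the double knockout, against 10.24, 10.05, 10.11 and 10.09 in Rbp2 RIP-Cre islets. Every double knockout array was below every Rbp2 RIP-Cre array. Men1 fell by 1.50 on the log2 scale (SE 0.0977, limma adjusted p = 3.8e-07), and it was called under all 15 alternatives tried, at values between -1.58 and -1.44. Men1 RIP-Cre islets had 8.14, 8.43 and 8.42, just below the double knockout, against 9.31, 9.49 and 9.38 in RIP-Cre islets. Men1 was called higher in Rbp2 RIP-Cre than in RIP-Cre islets (log2 0.73, limma adjusted p = 0.00359), a comparison that shares the Rbp2 RIP-Cre arrays with the one above. Kdm5a, deleted in both groups, had 9.39, 9.07, 9.39 and 9.10 in the double knockout and 9.18, 9.02, 9.01 and 8.95 in Rbp2 RIP-Cre islets, and the difference of 0.20 was not called (limma adjusted p = 0.476). Those levels were near the 9.09 to 9.37 of RIP-Cre islets. Where the probes lie relative to the floxed exons was not known here, so this level says nothing about the deletion.

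Men1 deletion on top of Rbp2 deletion called 239 of the 19938 genes (1.2%), 116 higher (0.582%) and 123 lower (0.617%) in the double knockout. The shifts were modest. The median size among called genes was 0.58 on the log2 scale, the smallest was 0.30, and 19 genes changed at least 2-fold, 10 of them upward and 9 downward. The arrays of the 2 groups did not overlap for 234 of the 239 called genes, against 1418 of all genes tested (7.11%). The 239 were called on these same arrays, so their separation follows largely from the call and is a description. The count rests on few arrays: it was 109 without Rbp2 RIP-Cre array 2, 132 without array 3 and 137 without array 4, and 130, 159 and 133 without double knockout arrays 2, 3 and 4. It was 360 after cyclic loess normalization and 510 with the array median as a covariate, and this last set held all 239.

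The steepest rises in the double knockout were those of a potassium channel, a relative of an elongation factor and an imprinted proteolipid. Kcnh5, a voltage-gated potassium channel of the ether-a-go-go family, had 9.04, 9.61, 9.10 and 9.12 in the double knockout, against 6.68, 7.23, 7.22 and 6.95 in Rbp2 RIP-Cre islets. Tceal6, of the transcription elongation factor A-like family, had 8.12, 8.06, 8.21 and 8.25 in the double knockout, against 6.29, 6.04, 5.80 and 6.13 in Rbp2 RIP-Cre islets. Both were called with a wide gap between the groups, Kcnh5 at 2.20 (SE 0.192, limma adjusted p = 1.95e-05) and Tceal6 at 2.10 (SE 0.129, limma adjusted p = 3.2e-07). Nnat, neuronatin, an imprinted proteolipid of the endoplasmic reticulum that beta cells express, had 10.04, 10.77, 10.69 and 11.28 in the double knockout and 9.55, 9.00, 8.90 and 8.93 in Rbp2 RIP-Cre islets. It rose by 1.60 (SE 0.284, limma adjusted p = 0.00932) with a spread in the double knockout far wider than that of Tceal6.

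Other rises were smaller. Slitrk1, a neuronal membrane protein that shapes neurites and synapses, had 8.68, 8.36, 8.94 and 8.33 in the double knockout and 7.45, 7.17, 7.39 and 7.22 in Rbp2 RIP-Cre islets. Kirrel3os, an opposite-strand transcript of the Kirrel3 locus, had 7.94, 8.11, 8.59 and 8.06 in the double knockout and 6.93, 7.04, 6.98 and 6.82 in Rbp2 RIP-Cre islets. Neither pair of groups overlapped, and the differences were 1.27 and 1.23. Rit2, a Ras-like GTPase of neurons, rose by 1.14 with no overlap between the groups. Vsnl1, a neuronal calcium sensor, rose by 0.93 but lost its call without Rbp2 RIP-Cre array 2 or 4 or double knockout array 2 or 4. Ptprs, a receptor tyrosine phosphatase, had 10.88, 10.60, 11.00 and 10.93 in the double knockout, against 10.24, 9.32, 9.25 and 10.48 in Rbp2 RIP-Cre islets. Its Rbp2 RIP-Cre arrays spread from 9.25 to 10.48, and its call at 1.03 (limma adjusted p = 0.0255) was lost under 6 of 15 alternatives, with a highest adjusted p of 0.0995: the fit to the 8 arrays alone, and without Rbp2 RIP-Cre array 2 or 3 or double knockout array 1, 3 or 4.

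Igf2, an imprinted growth factor of fetal tissue, had 9.15, 9.06, 8.97 and 9.28 in the double knockout, against 8.13, 8.14, 8.02 and 8.18 in Rbp2 RIP-Cre islets. The groups were tight and well apart, and the difference was 1.00 (SE 0.124, limma adjusted p = 0.00059). Nr1d1, the clock repressor REV-ERB alpha, had 10.94, 11.00, 11.02 and 10.93 in the double knockout and 10.27, 9.35, 9.85 and 10.06 in Rbp2 RIP-Cre islets, a rise of 1.09. Ap1s2, a subunit of the clathrin adaptor AP-1, rose by 0.96. Plppr5, a membrane protein related to lipid phosphatases, rose by 0.98, as did Rtkn2. Myo7a, an unconventional myosin of the inner ear hair cell, rose by 1.05, and Rtl4, a gene derived from a retrotransposon, by 0.92. For all 15 of the highest genes, every double knockout array was above every Rbp2 RIP-Cre array, as the plot of the 30 genes by array shows. These genes were picked by their calls on the same arrays.

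**Figure D1:**
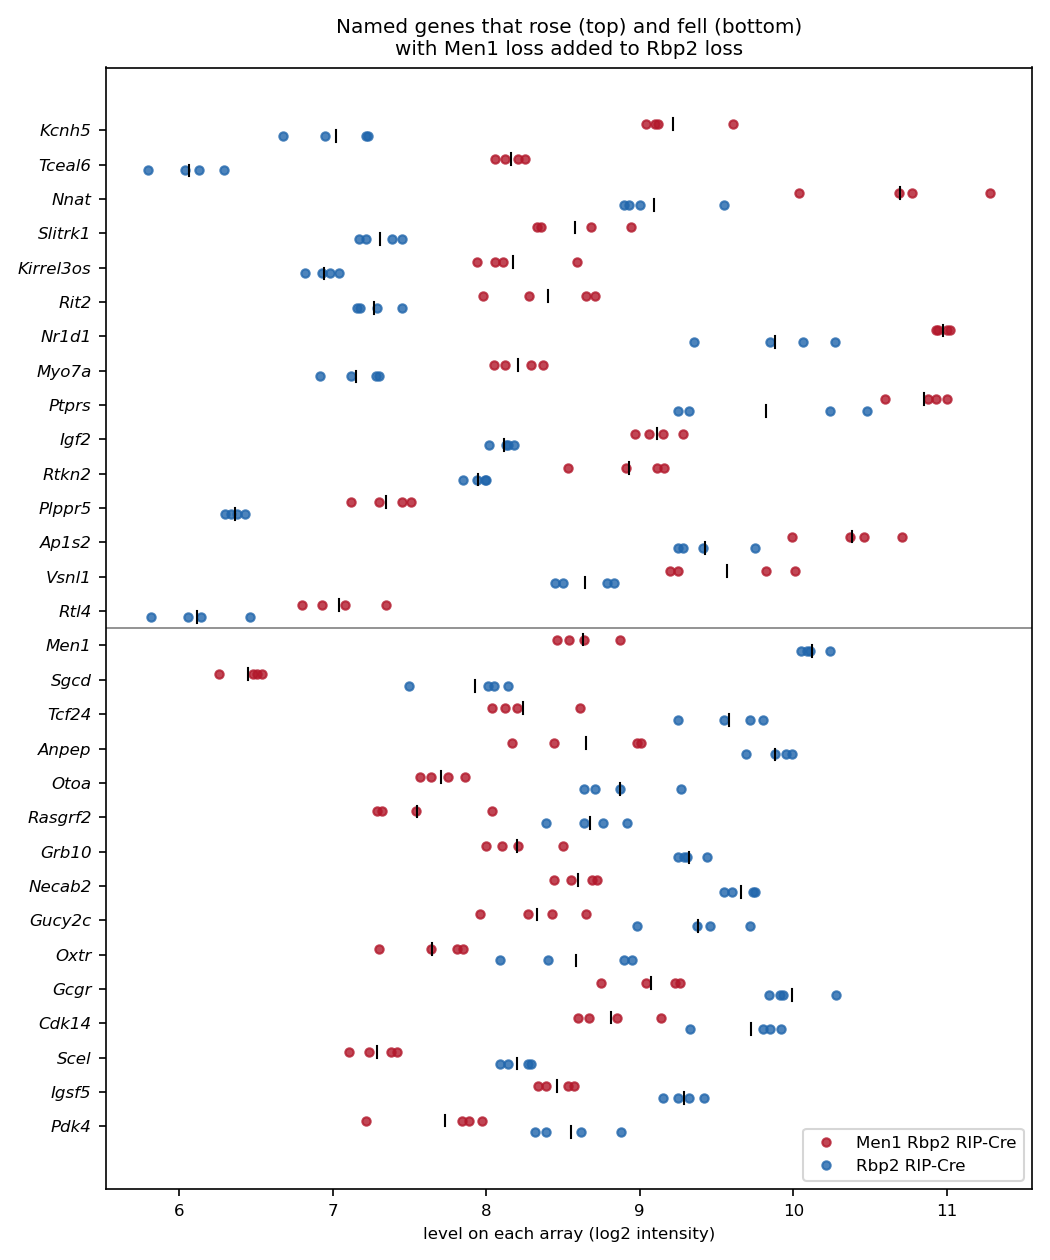
Log2 intensity of the 15 largest called rises and the 15 largest called falls in double knockout against Rbp2 RIP-Cre islets, with 1 point per array. In all 30 genes the 4 double knockout arrays lie on one side of the 4 Rbp2 RIP-Cre arrays, and Kcnh5 (2.20) and Men1 (-1.50) mark the ends. The 30 genes were picked by their calls on these arrays.

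The genes that fell most, after Men1 itself, came from several cell functions. Sgcd, delta-sarcoglycan of the muscle membrane complex, had 6.51, 6.26, 6.54 and 6.48 in the double knockout, against 7.50, 8.05, 8.14 and 8.01 in Rbp2 RIP-Cre islets. Tcf24, a helix-loop-helix transcription factor, had 8.61, 8.20, 8.04 and 8.12 in the double knockout and 9.25, 9.80, 9.72 and 9.55 in Rbp2 RIP-Cre islets. Sgcd fell by 1.48 (SE 0.156, limma adjusted p = 0.00012) and Tcf24 by 1.34 (SE 0.171, limma adjusted p = 0.000685), with no overlap. Anpep, aminopeptidase N, had 8.44, 9.01, 8.17 and 8.98 in the double knockout and 9.99, 9.95, 9.88 and 9.69 in Rbp2 RIP-Cre islets. Otoa, otoancorin of the inner ear, had 7.86, 7.57, 7.64 and 7.75 in the double knockout and 8.64, 8.87, 8.71 and 9.27 in Rbp2 RIP-Cre islets. These 2 genes fell by 1.23 and 1.17, and again the groups stood apart.

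Receptors were among the falls: Gcgr, the glucagon receptor, through which beta cells sense glucagon, Gucy2c, the receptor of guanylin, and Oxtr, the oxytocin receptor. Gcgr had 9.23, 8.75, 9.04 and 9.26 in the double knockout, against 9.91, 9.84, 9.93 and 10.28 in Rbp2 RIP-Cre islets. It fell by 0.92 (SE 0.12, limma adjusted p = 0.000723) and stayed called under every alternative tried. Gucy2c fell by 1.06 (limma adjusted p = 0.0183) and Oxtr by 0.94 (limma adjusted p = 0.0389). The call of Gucy2c was lost without Rbp2 RIP-Cre array 2, 3 or 4 or double knockout array 1 or 3. That of Oxtr was lost after quantile normalization and without Rbp2 RIP-Cre array 2 or 3 or any single double knockout array.

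Other falls included an imprinted adaptor, an exchange factor and 2 kinases. Grb10, an imprinted adaptor that dampens signalling by the insulin receptor, had 8.50, 8.21, 8.10 and 8.00 in the double knockout, against 9.31, 9.25, 9.29 and 9.44 in Rbp2 RIP-Cre islets. The Rbp2 RIP-Cre arrays were nearly alike and all far above the double knockout, and the fall was 1.12 (SE 0.115, limma adjusted p = 9.08e-05). Rasgrf2, an exchange factor for Ras, fell by 1.13, Necab2, a neuronal calcium-binding protein, by 1.06 and Cdk14, a cyclin-dependent kinase, by 0.91. Pdk4, which inhibits pyruvate dehydrogenase, fell by 0.82 (limma adjusted p = 0.0228), and its call was lost in the fit to the 8 arrays alone and without Rbp2 RIP-Cre array 2 or double knockout array 2 or 4. Cdk14 lost its call without Rbp2 RIP-Cre array 2 (adjusted p = 0.0516). Scel, sciellin of stratified epithelia, fell by 0.91 and Igsf5, an immunoglobulin-domain protein of tight junctions, by 0.83.

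Rbp2 RIP-Cre islets were not at the level of RIP-Cre islets for some of these genes, and the 2 comparisons share the Rbp2 RIP-Cre arrays. Of the 15 falls, 6 were also called in Rbp2 RIP-Cre against RIP-Cre, at 1.22 for Tcf24, 1.16 for Anpep, 0.89 for Otoa, 0.76 for Sgcd, 0.73 for Men1 and 0.48 for Necab2. Of the 15 rises, 3 were called there, at -0.85 for Rtkn2, -0.63 for Myo7a and -0.53 for Rit2. Rtkn2 shows how this looks by array: it had 8.91, 8.53, 9.11 and 9.16 in the double knockout, 7.99, 7.85, 7.94 and 8.00 in Rbp2 RIP-Cre islets and 8.60, 8.79 and 8.98 in RIP-Cre islets. Double knockout and RIP-Cre arrays overlapped, and the Rbp2 RIP-Cre arrays stood below both. Grb10 was of the other kind, with 9.31, 9.25, 9.29 and 9.44 in Rbp2 RIP-Cre islets and 9.52, 9.08 and 9.44 in RIP-Cre islets, which overlap. The share of all genes that differed between these 2 genotypes is not given here. The counts of 6 falls and 3 rises therefore cannot be set against a background. The 15 rises and 15 falls were also picked by a difference from the same Rbp2 RIP-Cre arrays, so both counts are a description.

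Since menin and Rbp2 act on a mark of CG-rich promoters, the promoter windows of genes at the ends of the comparison are shown, with each CG in capitals. They are RefSeq sequences of GRCm38.p6 from 250 bases before to 50 after the annotated start, for the 3 genes that rose most, for 3 of the genes that fell most (Sgcd, Anpep and Otoa), and for Lrrc55, described further on for its interaction. The windows lie at chr12:75177283-75177582 (Kcnh5, minus strand), chrX:135210638-135210937 (Tceal6, minus strand), chr2:157559828-157560127 (Nnat, plus strand), chr11:47379276-47379575 (Sgcd, minus strand), chr7:79848161-79848460 (Anpep, minus strand), chr7:121083174-121083473 (Otoa, plus strand) and chr2:85198701-85199000 (Lrrc55, minus strand).
Kcnh5: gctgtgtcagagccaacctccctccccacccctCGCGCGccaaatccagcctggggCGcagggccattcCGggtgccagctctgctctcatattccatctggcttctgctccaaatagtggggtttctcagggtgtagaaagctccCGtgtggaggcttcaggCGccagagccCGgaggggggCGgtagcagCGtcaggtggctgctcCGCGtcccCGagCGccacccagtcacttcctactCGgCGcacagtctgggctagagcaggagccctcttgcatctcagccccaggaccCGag
Tceal6: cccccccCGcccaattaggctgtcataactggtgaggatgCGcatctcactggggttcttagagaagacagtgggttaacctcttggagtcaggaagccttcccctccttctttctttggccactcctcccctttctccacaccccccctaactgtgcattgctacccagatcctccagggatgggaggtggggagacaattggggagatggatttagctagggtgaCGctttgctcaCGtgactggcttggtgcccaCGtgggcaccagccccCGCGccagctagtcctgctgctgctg
Nnat: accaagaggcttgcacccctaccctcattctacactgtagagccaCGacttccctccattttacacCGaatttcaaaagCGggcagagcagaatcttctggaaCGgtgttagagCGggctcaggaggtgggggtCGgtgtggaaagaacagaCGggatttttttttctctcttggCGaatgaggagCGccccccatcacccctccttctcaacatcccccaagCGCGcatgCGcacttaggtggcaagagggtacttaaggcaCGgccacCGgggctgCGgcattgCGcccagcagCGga
Sgcd: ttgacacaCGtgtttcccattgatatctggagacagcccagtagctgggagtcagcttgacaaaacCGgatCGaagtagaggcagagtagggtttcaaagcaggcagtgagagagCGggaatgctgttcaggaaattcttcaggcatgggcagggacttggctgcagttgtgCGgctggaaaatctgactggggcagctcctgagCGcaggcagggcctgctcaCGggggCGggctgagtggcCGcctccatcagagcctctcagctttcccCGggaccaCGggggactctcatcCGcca
Anpep: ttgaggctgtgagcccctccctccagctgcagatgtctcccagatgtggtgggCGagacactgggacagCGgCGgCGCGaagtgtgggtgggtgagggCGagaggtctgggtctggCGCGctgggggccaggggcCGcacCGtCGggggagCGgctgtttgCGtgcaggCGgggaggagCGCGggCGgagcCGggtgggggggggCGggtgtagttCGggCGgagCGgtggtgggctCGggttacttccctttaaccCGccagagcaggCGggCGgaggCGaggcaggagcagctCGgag
Otoa: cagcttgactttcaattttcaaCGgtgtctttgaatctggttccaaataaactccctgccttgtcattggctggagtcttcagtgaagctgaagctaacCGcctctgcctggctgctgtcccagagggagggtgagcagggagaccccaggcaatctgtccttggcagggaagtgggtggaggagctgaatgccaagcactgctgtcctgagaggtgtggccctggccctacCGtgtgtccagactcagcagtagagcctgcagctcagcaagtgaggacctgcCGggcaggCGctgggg
Lrrc55: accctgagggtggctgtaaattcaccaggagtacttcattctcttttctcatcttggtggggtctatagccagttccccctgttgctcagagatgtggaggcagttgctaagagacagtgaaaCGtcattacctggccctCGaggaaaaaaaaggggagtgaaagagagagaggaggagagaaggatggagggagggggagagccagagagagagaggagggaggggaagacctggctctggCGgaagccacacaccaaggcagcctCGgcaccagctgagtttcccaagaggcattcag
The CG count was 17 for Kcnh5, 7 for Tceal6, 17 for Nnat, 12 for Sgcd, 28 for Anpep, 5 for Otoa and 4 for Lrrc55, so that both sparse and dense windows occur among genes that moved either way. A CG reads the same on both strands, and 94.6% of all 32851 windows of this length hold at least 1, with a median of 7. Of the genes tested, 12977 matched exactly 1 window by symbol, with a median of 15 CG. The median was 17 for the 72 called higher with 1 window and 20 for the 72 called lower. These counts describe letters, not methylation or binding.

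The same deletion in mice with intact Rbp2 gave the second Men1 comparison, Men1 RIP-Cre against RIP-Cre, which shares no array with the first. It called 10660 of the 19938 genes (53.5%), 3126 higher (15.7%) and 7534 lower (37.8%). Both the count and the split depended on how arrays were levelled: 7067 genes (3301 higher, 3766 lower) were called after quantile normalization, 6878 (3601 higher, 3277 lower) after cyclic loess and 396 (212 higher, 184 lower) with the array median as a covariate, and 6174 without RIP-Cre array 3, whose median of 8.16 was the highest of the 6 arrays. Without the added steps the median change of all genes was -0.23 there, against -0.01 in the double knockout comparison. The plot of median change by level shows that it moved with intensity: with genes split by level into 10 groups it lay at -0.43 in the dimmest and 0.20 in the brightest group for Men1 loss alone, and stayed between -0.04 and 0.02 for Men1 loss added to Rbp2 loss. The part of array-wide levels in the larger count was not tested beyond these values.

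**Figure D2:**
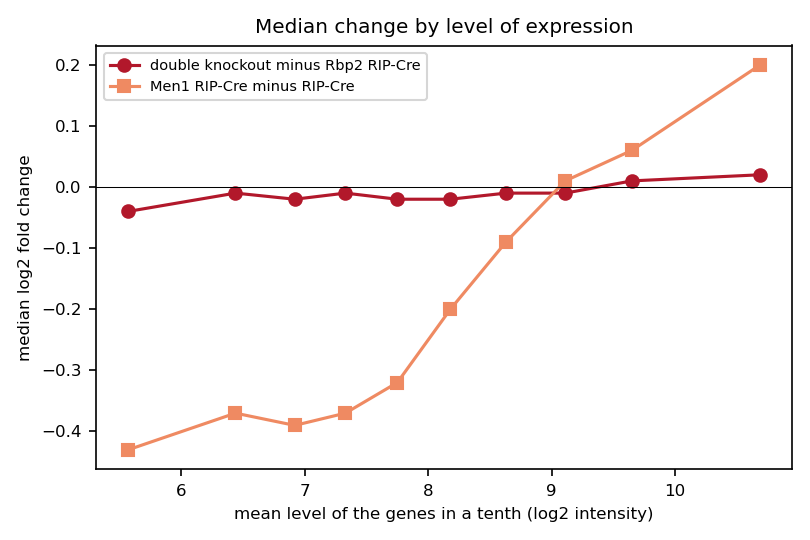
Median log2 fold change of genes split by mean level into 10 groups, each point placed at the mean log2 intensity of its group, for both Men1 comparisons. The double knockout line stays between -0.04 and 0.02, while the line for Men1 RIP-Cre minus RIP-Cre lies at -0.43 for the dimmest group and 0.20 for the brightest.

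Of the 239 genes called in the double knockout, 178 (74.5%, or 1.67% of the 10660) were called in the same direction in both comparisons, 6 in opposite directions, and 55 were not called for Men1 alone. By direction, 79 of the 116 higher genes (68.1%) were also called higher for Men1 alone, where 15.7% of all genes were, and 99 of the 123 lower genes (80.5%) were also called lower, where 37.8% of all genes were. The share depended on levelling. After cyclic loess the shared set was 268 genes (147 higher, 121 lower) of 360 called in the double knockout. With the array median as a covariate it was 149 of 510, so that most double knockout calls were not shared there. That fit called 396 genes for Men1 alone, so no more than 396 of the 510 could be shared. The shared set was 85, 100 and 106 without Rbp2 RIP-Cre arrays 2, 3 and 4, and 103 and 96 without double knockout arrays 2 and 4. Across the 239 genes the log2 changes correlated at Pearson 0.82, and across all 19938 genes at 0.49, which describes these arrays only, since genes are not independent.

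Among the 30 genes named above, 12 of the 15 rises and 14 of the 15 falls were called the same way for Men1 alone. Of all genes, 15.7% were called higher and 37.8% lower there, and 396 genes were called with the array median as a covariate. The 14 falls include Men1, which was deleted in both comparisons. Tceal6 had 8.83, 8.57 and 8.29 in Men1 RIP-Cre islets and 6.31, 6.31 and 5.89 in RIP-Cre islets, a difference of 2.39 beside 2.10 in the double knockout. Nnat rose by 1.94 there, Kirrel3os by 1.76, Slitrk1 by 1.47 and Igf2 by 1.23. Grb10 had 7.65, 7.70 and 7.88 in Men1 RIP-Cre islets, against 9.52, 9.08 and 9.44 in RIP-Cre islets, and fell by 1.60. Gucy2c fell by 1.76, Rasgrf2 by 1.41 and Gcgr by 0.82. In none of these genes was the interaction called, so their responses with and without Rbp2 were not shown to differ.

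Of the 178 shared genes, 131 had the smaller change in the double knockout comparison. The median size of the 178 was 0.58 on the log2 scale there, beside 0.78 for Men1 alone, where all genes shifted by a median of -0.23. Among genes with a large response to Men1 alone, 555 were called at least 2-fold in Men1 RIP-Cre against RIP-Cre, 508 of them had the same sign in the double knockout comparison, and 61 (11%) were called there in the same direction. Both sets were chosen by their size or call, so these counts are a description. The difference of each gene was tested as an interaction, which was called for 169 of the 555 and 16 of the 178, beside 3.39% of all genes. The change for Men1 alone is part of the interaction, so these counts carry the same choice and are a description too.

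**Figure D3:**
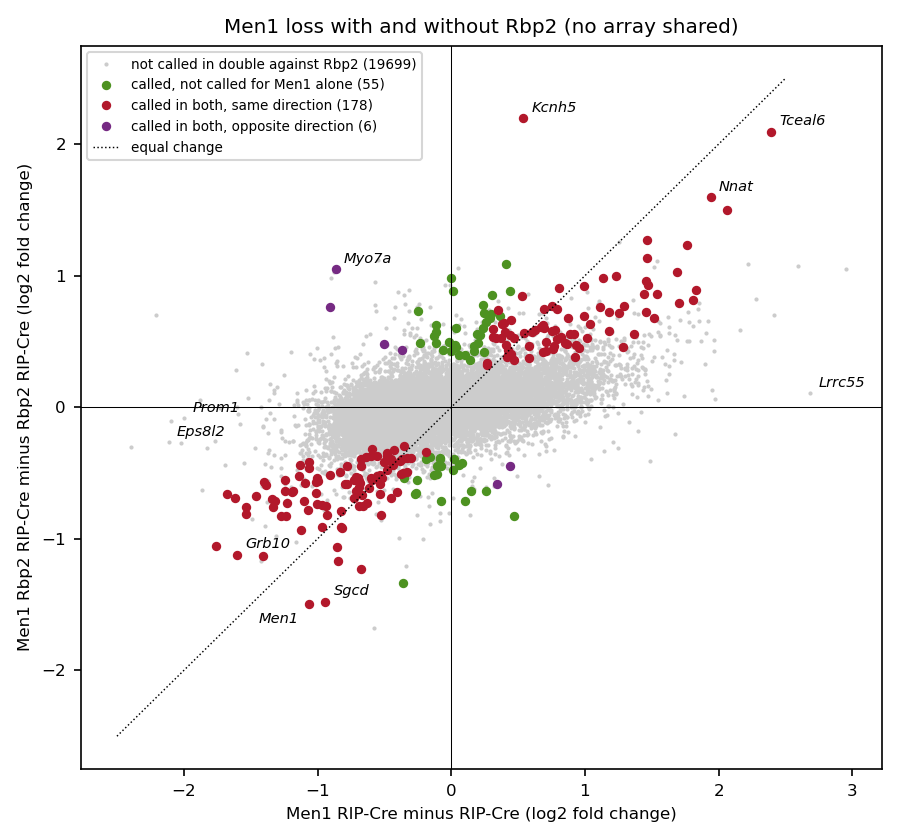
Log2 fold change of each of 19938 genes for Men1 loss with Rbp2 intact (x axis, Men1 RIP-Cre minus RIP-Cre) and for Men1 loss added to Rbp2 loss (y axis, double knockout minus Rbp2 RIP-Cre). The 178 genes called the same way in both (red) lie in the lower left and upper right, Kcnh5 stands above the line of equal change and Lrrc55 lies near 0 on the y axis.

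The interaction is the log2 change from Men1 loss without Rbp2 minus the change from Men1 loss with Rbp2. It was called for 675 genes (3.39%), 354 of them positive (1.78%) and 321 negative (1.61%), and its median over all genes was 0.20, beside -0.01 and -0.23 in the 2 Men1 comparisons. This count was the least steady of all: it was 20 with the array median as a covariate, 353 (129 positive, 224 negative) after quantile normalization and 493 (151 positive, 342 negative) after cyclic loess, where the median of all genes was 0.04 and 0.01, and it ranged from 22 to 2783 when 1 array was left out. The 6 highest and 6 lowest genes are therefore given with their own stability.

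Lrrc55, an auxiliary subunit of large-conductance potassium channels, had the lowest interaction. It lay at 10.06, 9.56 and 9.71 in Men1 RIP-Cre islets, against 7.03, 6.93 and 7.32 in RIP-Cre islets, a rise of 2.68 (limma adjusted p = 4.55e-08). In the double knockout it had 7.33, 7.05, 6.90 and 7.04, against 6.80, 7.08, 6.95 and 7.06 in Rbp2 RIP-Cre islets. The 3 Men1 RIP-Cre arrays thus stood alone, while the other groups overlapped. The interaction was -2.58 (SE 0.194, limma adjusted p = 6.41e-06), and it was called under all 21 alternatives. Adh1, alcohol dehydrogenase, had an interaction of -1.58 that was also called under all of them: it had 11.70, 11.96, 11.54 and 11.93 in the double knockout and 11.85, 12.14, 12.11 and 11.75 in Rbp2 RIP-Cre islets, beside 12.50, 12.37 and 12.37 in Men1 RIP-Cre and 11.08, 11.17 and 10.80 in RIP-Cre islets. Zfp868, a zinc finger gene, came next in size after Lrrc55 at -1.90, and its call was lost with the array median as a covariate (adjusted p = 0.136). Ttc30b, of intraflagellar transport (-1.87), Cd63, a tetraspanin of late endosomes (-1.82), and Tmtc3, a mannosyltransferase (-1.66), each lost the call under 9 alternatives.

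At the other end, 4 genes were called lower for Men1 alone and not called in the double knockout comparison. Eps8l2, an actin regulator, had 7.76, 8.04 and 8.22 in Men1 RIP-Cre islets, against 10.10, 10.07 and 10.19 in RIP-Cre islets. In the double knockout it had 9.86, 9.44, 10.14 and 9.32, against 9.93, 9.93, 9.96 and 10.01 in Rbp2 RIP-Cre islets. The Men1 RIP-Cre arrays were the lowest by far, and the interaction of 1.85 (SE 0.218, limma adjusted p = 0.00111) was called under every alternative. Eps8l2 was also called lower in the double knockout than in RIP-Cre islets, at -0.43 (limma adjusted p = 0.0423). Gem, a Ras-related GTPase known to inhibit calcium channels, had an interaction of 1.89 of another shape: 7.52, 8.03, 7.56 and 8.25 in the double knockout, 7.48, 7.36, 7.52 and 7.87 in Rbp2 RIP-Cre islets, 7.67, 7.92 and 7.87 in Men1 RIP-Cre islets and 9.53, 9.60 and 9.15 in RIP-Cre islets. All 3 knockout genotypes were low, and RIP-Cre islets were high, as were wild type islets at 9.55 to 9.69. Prom1, the membrane protein prominin 1 (1.92), lost its call without Men1 RIP-Cre array 1 or 3. H2-Eb1, a beta chain of MHC class II, had the highest interaction (2.91, limma adjusted p = 0.0219) but varied within groups, with 7.90, 7.42, 9.02 and 9.18 in the double knockout and 7.27, 7.41, 8.62 and 7.42 in Rbp2 RIP-Cre islets, and lost its call under 5 alternatives.

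Of the 30 named rises and falls, 3 had a called interaction: Kcnh5, Myo7a and Rtkn2. With Rbp2 intact Kcnh5 had 8.19, 7.98 and 7.78 in Men1 RIP-Cre islets, against 7.02, 7.36 and 7.95 in RIP-Cre islets, an increase of 0.54 (limma adjusted p = 0.0494) in which the arrays overlapped. Its interaction was 1.66 (limma adjusted p = 0.0199). Whether the interaction calls of Kcnh5 and Rtkn2 held under the alternatives is not given here. Myo7a moved in opposite directions: it rose by 1.05 in the double knockout and fell by 0.86 for Men1 alone, with 6.85, 6.88 and 7.04 in Men1 RIP-Cre islets, against 7.94, 7.85 and 7.57 in RIP-Cre islets. Its interaction of 1.92 (limma adjusted p = 0.000105) was called under every alternative. Trim12a, a tripartite-motif gene, did likewise, with log2 changes of 0.76 in the double knockout and -0.90 for Men1 alone. The 4 other genes called in opposite directions were Coa4, Hddc2, Parva and Sult1c2, named after their values were seen. Of these 6 genes, 4 (Coa4, Myo7a, Parva and Trim12a) lie on chromosome 7, which holds 8.7% of the genes tested. In the double knockout comparison 22 of its 1734 genes (1.27%) were called, near the 1.2% of all genes. The 6 genes are few, and their position was not tested.

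**Figure D4:**
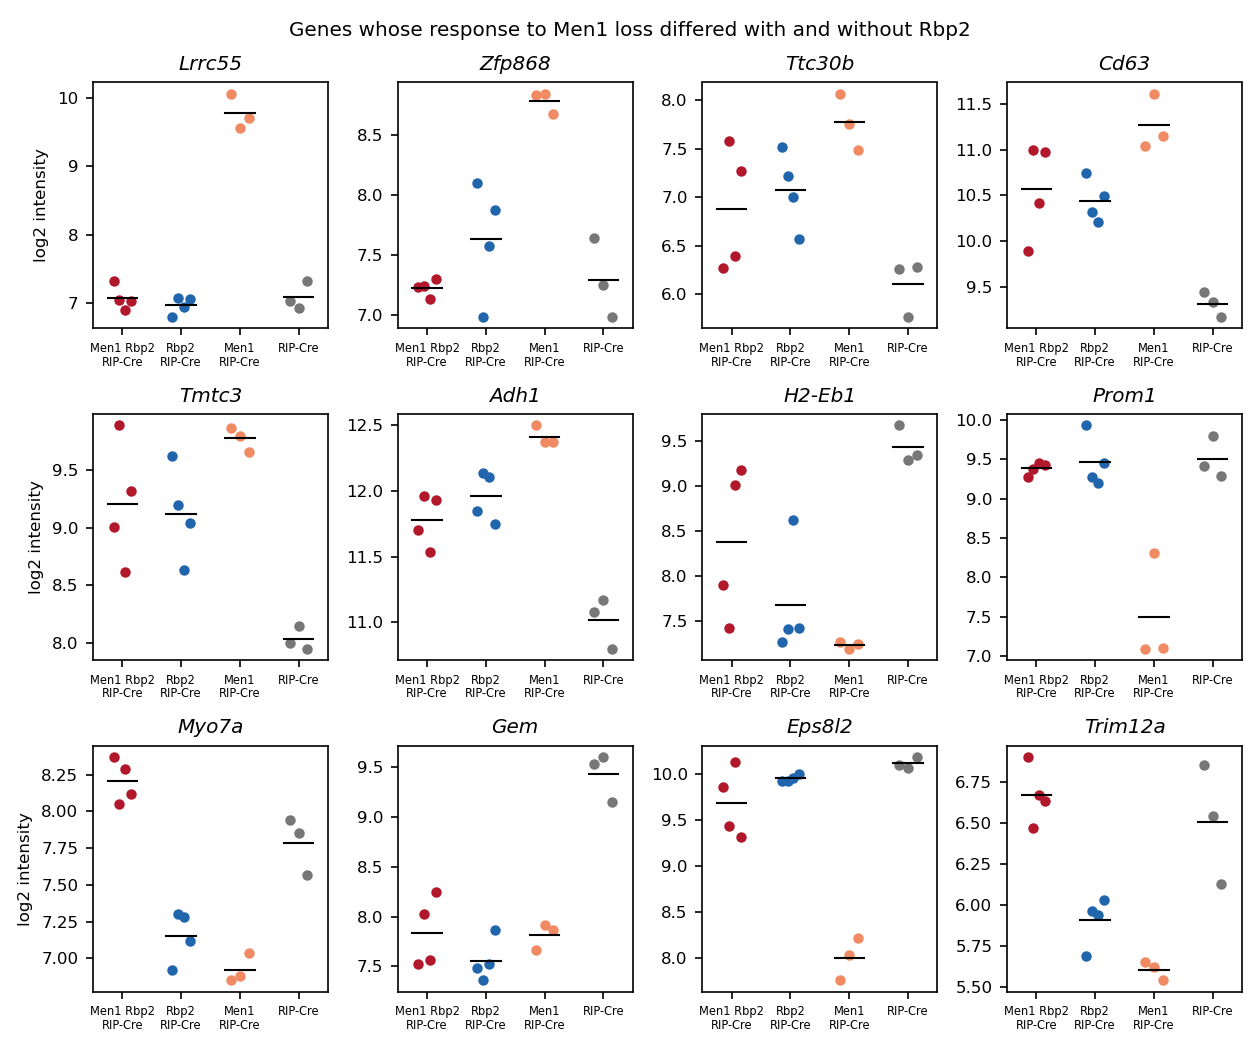
Log2 intensity per array of the 6 most negative and 6 most positive interaction genes, by genotype, with a bar at each group mean. Lrrc55 is high only in the 3 Men1 RIP-Cre arrays, Eps8l2 is lowest there, and Gem is high only in RIP-Cre arrays among the 4 groups drawn.

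Gene lists of menin biology and islet function were then read across the comparison. Of 467 tested members of 31 lists, 10 were called in the double knockout, 7 higher and 3 lower, where 1.2% of all genes tested were called. After cyclic loess 15 were called higher and 5 lower, and with the array median as a covariate 19 and 7, in fits that called 360 and 510 of all genes. Without RIP-Cre array 3 they were 11 and 5. The same members gave 118 calls higher and 119 lower for Men1 alone, where 15.7% of all genes were called higher and 37.8% lower. Menin's partners in the MLL complexes (16 genes) and the H3K4 demethylases (6 genes) gave no call in the double knockout, with medians of 0.07 and 0.05 and lowest adjusted p-values from limma of 0.245 and 0.259. The CDK inhibitors, of which Cdkn1b (p27) and Cdkn2c (p18) are known menin targets, also gave none of 6, with Cdkn1b at -0.15 and Cdkn2c at 0.17. The same 2 genes differed by 0.06 and 0.45 for Men1 alone, where Cdkn2c was called (limma adjusted p = 0.0223), as were 15.7% of all genes in that direction. No CDK inhibitor was called for Men1 alone with the array median as a covariate or without RIP-Cre array 3, so that this call was lost in both. Hox genes, which menin activates in blood cells, gave no call among 37 (median -0.07, members between -0.32 and 0.20), and 1 lower with the array median as a covariate.

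Most members of both cell cycle lists lay above 0. In the list of G1 phase and DNA replication, 21 of 26 members were above 0, with a median of 0.19 beside -0.01 over all genes, and 2 were called, both higher. The loess fit called 4 and the fit with the array median as a covariate 5. Ccnd1, cyclin D1, went the other way, at -0.51 (limma adjusted p = 0.245), and was not called. Pole, the catalytic subunit of DNA polymerase epsilon, rose by 0.72 (limma adjusted p = 0.0192), and Mcm3, of the replicative helicase, rose by 0.43 (limma adjusted p = 0.0388). Pole ranged from 7.46 to 7.78 in the double knockout, against 6.57 to 7.01 in Rbp2 RIP-Cre islets. The call of Pole was lost without Rbp2 RIP-Cre array 1 or 2 or double knockout array 1, and that of Mcm3 under 9 of 15 alternatives. Of the 23 mitosis genes 22 were above 0, with a median of 0.28. None was called. The loess fit called 2 higher, and the fit with the array median as a covariate 3. Top2a, the topoisomerase of dividing cells, came nearest (0.62, limma adjusted p = 0.0614), Mki67, the proliferation marker, differed by 0.65 (adjusted p = 0.187), and Cdk1, the mitotic kinase, by 0.47 (adjusted p = 0.135). The summed linear intensity of the mitosis list was 6640, 6524, 5805 and 6122 in the double knockout, against 4634, 5169, 5009 and 5307 in Rbp2 RIP-Cre islets, with no overlap. Spc25, the brightest member, weighs most in this sum, with means of 10.76 in the double knockout and 10.34 in Rbp2 RIP-Cre islets. Spc25 differed by 0.42 (limma adjusted p = 0.442), beside -1.20 for Men1 alone, with a called interaction of 1.62. The mean log2 level of the mitosis list, where each member counts alike, did not overlap either. It was 7.57 to 7.88 in the double knockout and 7.19 to 7.52 in Rbp2 RIP-Cre islets. The sums of the G1 phase and DNA replication list did overlap, at 21028 to 25552 in the double knockout and 21622 to 24469 in Rbp2 RIP-Cre islets. Its brightest members weigh most in these sums. The mean log2 level of the same list did not overlap, at 8.44 to 8.64 in the double knockout and 8.28 to 8.4 in Rbp2 RIP-Cre islets. For Men1 alone the mitosis list had a median of -0.12, beside -0.23 over all genes, and 4 of 23 members were called lower, where 37.8% of all genes were. That direction did not hold under other levelling: the median was 0.22 after cyclic loess, with 6 members called higher and 1 lower, and 0.12 with the array median as a covariate, with 1 called lower. Without RIP-Cre array 3 it was -0.04, with 1 called lower.

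Beta cell genes gave 1 call among 23 in the double knockout, Nnat, and their median was 0.11. The loess fit called 3 of them, all higher. The count was 4, all higher, with the array median as a covariate, and 4 higher and 1 lower without RIP-Cre array 3. Ins2, insulin 2, differed by 0.04 (limma adjusted p = 0.93), Pdx1, the beta cell transcription factor, by 0.11, and Slc2a2, the glucose transporter GLUT2, by 0.37, none of them called. For Men1 alone 15 of the 23 were called higher, where 15.7% of all genes were, with Pdx1 at 0.67 and Slc2a2 at 0.95. This came to 10 higher and 1 lower after cyclic loess, where 3601 of all 19938 genes were called higher, and 2 higher with the array median as a covariate, where 212 were. Counts of other lists are set side by side: oxidative phosphorylation had 0 of 56 members called in the double knockout and 33 higher and 2 lower for Men1 alone, cholesterol and fatty acid synthesis 0 of 22 in the double knockout and 14 higher for Men1 alone, and chaperones of the endoplasmic reticulum 0 of 24 in the double knockout and 15 higher and 2 lower for Men1 alone. The interaction was called for no member of the oxidative phosphorylation and chaperone lists and was negative for 2 of the lipid list, where 3.39% of all genes were called. In the double knockout 1.2% of all genes were called, a rate at which no call in lists of this size is not apart from the rest. All genes were called higher at 15.7% and lower at 37.8% for Men1 alone. With the array median as a covariate, which called 396 of all 19938 genes for Men1 alone, these Men1 counts were 0, 3 and 0, and the double knockout counts were 1, 1 and 0, all higher. Of the 37 Hox genes, 32 were called lower for Men1 alone, where 37.8% of all genes were. After cyclic loess 18 were, beside 3277 of all genes, and with the array median as a covariate none was, beside 184 of all genes, a rate at which 0 of 37 is not apart from the rest. Without RIP-Cre array 3 the count for Men1 alone was 16 lower for Hox genes, and 7 higher and 1 lower for the chaperones. Scd1, the fatty acid desaturase, came nearest to a call among the lipid genes of the double knockout, at 1.09 (limma adjusted p = 0.0634), beside 2.22 for Men1 alone.

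Single called members lay in other lists. Trpm2, a calcium-permeable channel of beta cells, rose by 0.65 (limma adjusted p = 0.00266), with 8.05 to 8.28 in the double knockout and 7.38 to 7.67 in Rbp2 RIP-Cre islets. Scn3a, a voltage-gated sodium channel, fell by 0.69 (limma adjusted p = 0.0361) and by 1.62 for Men1 alone, and lost its double knockout call under 7 alternatives. Lmo4, a LIM-domain cofactor listed among genes usually silent in beta cells, rose by 0.61 (limma adjusted p = 0.00166) and by 0.67 for Men1 alone. Igfbp5, an IGF-binding protein, rose by 0.59 (limma adjusted p = 0.000699) and by 0.77 for Men1 alone. Acvr1c, the receptor ALK7 of the activin family, rose by 0.56 (limma adjusted p = 0.0237), a call lost under 8 alternatives. The median of each list and its counts are drawn in the plot of gene lists.

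**Figure D5:**
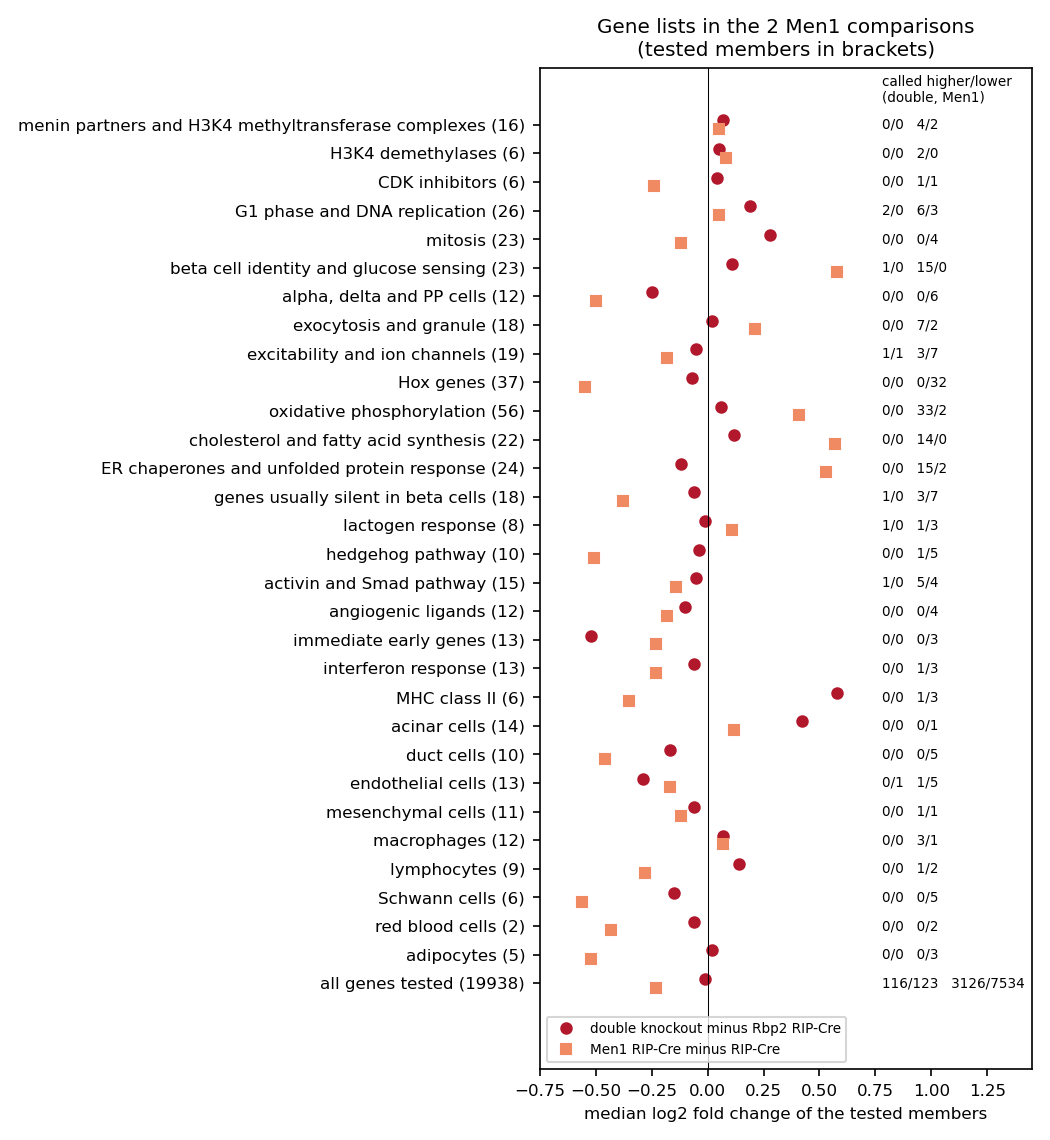
Median log2 fold change of the tested members of each gene list, for the double knockout minus Rbp2 RIP-Cre (circles) and Men1 RIP-Cre minus RIP-Cre (squares), with the members called higher and lower at the right in that order. Most circles lie near 0 with 0 calls, while the squares spread from -0.56 to 0.58 around a median of all genes of -0.23.

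Markers of other cells moved with the double knockout in part, and their share in the results above was not tested. Endothelial markers had 12 of 13 members below 0 (median -0.29). Their summed linear intensity was 8286, 8400, 7474 and 8492 in the double knockout, against 9007, 11438, 9906 and 10121 in Rbp2 RIP-Cre islets, with no overlap. The loess fit called 3 members lower, and 2 were called lower with the array median as a covariate and without RIP-Cre array 3. Tie1, an endothelial receptor kinase, was the 1 member called without these steps: it fell by 0.41 (limma adjusted p = 0.0142), a call lost in the fit to the 8 arrays alone and without Rbp2 RIP-Cre array 2 or 4 or double knockout array 2. Kdr, the main VEGF receptor, differed by -0.33 (adjusted p = 0.0996). Acinar markers, digestive enzymes of the surrounding pancreas, were all above 0 among 14 (median 0.42), none was called, and their sum was 8777, 6708, 25564 and 6057 in the double knockout, against 5303, 7228, 10901 and 5601 in Rbp2 RIP-Cre islets. Double knockout array 3 was by far the highest, and the other arrays overlapped.

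MHC class II genes were all above 0 among 6 (median 0.58) with none called, and summed to between 2611 and 5090 in the double knockout and between 2196 and 2436 in Rbp2 RIP-Cre islets. Macrophage markers summed to between 2819 and 3935 in the double knockout and between 2470 and 2679 in Rbp2 RIP-Cre islets, and lymphocyte markers to between 1278 and 2783 in the double knockout and between 1091 and 1348 in Rbp2 RIP-Cre islets, with no member of the 12 and 9 called. Double knockout array 1 was the highest in all 3 lists, and only the lymphocyte sums overlapped between the groups. Immediate early genes, which respond to stress and handling, had a median of -0.52 with none of 13 called. They summed to between 6024 and 8876 in the double knockout and to 8038, 7763, 19430 and 9451 in Rbp2 RIP-Cre islets, where array 3 stood apart. Alpha, delta and PP cell genes had 11 of 12 members below 0 (median -0.25) with none called, and Gcg, glucagon, differed by -0.15 and Sst, somatostatin, by -0.25. No marker of any list was at 0 on any array.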

How the data were processed

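The authors deposited a log2 intensity for each of 35512 probe sets on 17 arrays. How these were computed (software, background correction, normalization) is not given in the sources used here, and the labels name a kit that labels single-stranded DNA with biotin. No array copied another (smallest root mean square difference 0.357). The 21789 probe sets that name 1 gene in the platform's annotation were used, the brightest on average standing for its gene, which gave 19938 genes. Probe sets with several genes (1621) or none (12102) were left out. Groups follow the titles.

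The 5 group means were fitted with limma 3.58.1 (lmFit, eBayes) in R 4.3.3. Named are Men1, Kdm5a, the 15 largest called rises and 15 largest falls, 2 members at each end of a list and any called one, and the 6 interaction genes at each end, without predicted, clone-named, receptor-family or small RNA genes (3 called). Ins2, Pdx1, Slc2a2, Mki67, Cdk1, Kdr, Gcg and Sst were added after their values were seen. Members and lists were chosen with earlier results of these data known. In simulated data for the double knockout comparison (19938 genes), 62.7% of genes changed 1.5-fold and 95.8% of those changed 2-fold were recovered, with 8 false calls. Alternatives were a fit to the arrays compared, a replicate block, a filter at the 25th percentile, quantile or cyclic loess normalization, an array-median covariate, an intensity trend, every single-gene probe set and leaving out each array. List counts under loess, under the covariate and without RIP-Cre array 3 were added after seeing the data.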

Additional observations from a re-analysis of the deposited data

Results flagged for a closer look

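In 100 groups of 4 arrays checked (50 genes), 6 held an array far from the others by Dixon's test, which chance does in about 1 in 20 groups. Double knockout array 2 had Kcnh5 at 9.61, where the others had 9.04 to 9.12, and double knockout array 1 had Pole at 7.78, where the others had 7.46 to 7.49. Double knockout array 3 had Igfbp5 at 9.35, below the 9.53 to 9.56 of the others. Among Rbp2 RIP-Cre arrays, array 1 had Nnat at 9.55 (others 8.90 to 9.00), array 2 had Scn3a at 8.61 (others 8.55 to 8.56) and array 3 had H2-Eb1 at 8.62 (others 7.27 to 7.42). For Igfbp5 and Scn3a the gap is small in itself and stands out since the remaining arrays were nearly alike.

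The effects of Men1 loss with and without Rbp2 had a called interaction in limma in 15 of the genes checked. The log2 difference of the 2 effects was positive for H2-Eb1 (2.91), Myo7a (1.92), Prom1 (1.92), Gem (1.89), Eps8l2 (1.85), Trim12a (1.67), Kcnh5 (1.66), Rtkn2 (0.98) and Scn3a (0.92), and negative for Lrrc55 (-2.58), Zfp868 (-1.90), Ttc30b (-1.87), Cd63 (-1.82), Tmtc3 (-1.66) and Adh1 (-1.58). Of these, the 12 at the ends of the interaction were chosen by that value, and 6 of the 12 lost the call under at least 1 alternative. For Kcnh5, Rtkn2 and Scn3a (limma adjusted p = 0.0481) the interaction under the alternatives is not given here. Rtkn2 had no change for Men1 alone (log2 0.00), with 8.64, 8.77 and 8.96 in Men1 RIP-Cre islets and 8.60, 8.79 and 8.98 in RIP-Cre islets.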

How the results depend on the processing

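No direction turned in the 38 called genes of the double knockout comparison or the 12 interaction genes under any alternative tried. Of the 38, 27 stayed called throughout, and Ptprs, Vsnl1, Gucy2c, Oxtr, Cdk14, Pdk4, Acvr1c, Mcm3, Pole, Scn3a and Tie1 lost the call at least once. Of the 12, Lrrc55, Adh1, Myo7a, Gem, Eps8l2 and Trim12a stayed called throughout. The 239 calls of the double knockout comparison became 360 after cyclic loess, 510 with the array median as a covariate, and 109 to 272 with 1 array left out. The 10660 of Men1 alone became 7067 after quantile normalization, 6878 after loess and 396 with the covariate, and 6174 to 11006 with 1 array left out. The 178 shared calls became 268 after loess, and 85 to 219 with 1 array left out. The 675 interaction calls became 1375 with only the arrays compared, 1400 without dim genes, 353 after quantile normalization, 20 with the covariate, 1198 with an intensity trend, and 22 to 2783 with 1 array left out. Quantile normalization and loess moved the median change of all genes for Men1 alone to -0.05 and -0.02, against -0.23 without them. The cause of these moves was not tested. Same-numbered double knockout and Rbp2 RIP-Cre arrays correlated at -0.298, 0.0257, 0.274 and -0.0228 in their deviations from the group means. Arrays with different numbers correlated at -0.303 to 0.384. The numbers thus showed no pairing, and so few values cannot exclude one. With the repeat number as a replicate block, 211 genes were called for the double knockout, 10903 for Men1 alone, 162 in both and 1933 in the interaction.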

Other observations

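The genes in these paragraphs were chosen after their values were seen. Besides Nr1d1, the clock output gene Dbp rose in the double knockout: it had 9.32, 9.50, 9.26 and 9.23, against 8.54, 8.23, 8.52 and 8.48 in Rbp2 RIP-Cre islets (log2 0.89, limma adjusted p = 0.0144). The groups were well apart. Nr1d2 differed by 0.48 and Per3 by 0.51, while Cry1 differed by -0.35, Arntl by -0.28 and Per2 by -0.15, and none of these was called. For Men1 alone Nr1d1 differed by 0.41 and Dbp by 0.44, neither called, and their interactions were not called. The hour at which islets were taken was not given in the sources used here.

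Of imprinted genes looked at, Nnat and Igf2 rose and Grb10 fell in both Men1 comparisons. Plagl1, an imprinted zinc finger gene, had 9.07, 9.17, 9.28 and 9.27 in the double knockout, against 8.55, 8.53, 8.57 and 8.66 in Rbp2 RIP-Cre islets. The arrays stood apart, yet the difference of 0.62 was not called (limma adjusted p = 0.3). For Men1 alone it rose by 1.81, with 9.96, 11.44 and 9.66 in Men1 RIP-Cre islets and 8.59, 8.55 and 8.50 in RIP-Cre islets. Dlk1, Meg3, Peg3, Mest and Peg10 were not called in the double knockout, with differences between -0.31 and 0.04. In the Tceal family Tceal6 was called, and Tceal1 (0.25), Tceal5 (-0.10), Tceal8 (0.13) and Tceal9 (0.04) were not. Slitrk6, a relative of Slitrk1, had 9.98, 10.78, 10.30 and 10.84 in the double knockout and 9.98, 9.07, 8.92 and 9.62 in Rbp2 RIP-Cre islets, a difference of 1.08 just short of a call (limma adjusted p = 0.053), beside a rise of 2.59 for Men1 alone.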
